A study of Homo sapiens with 8 samples.

Results

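The genes described here encode 44 secreted or shed signalling ligands, chemokines, interleukins and growth cytokines, chosen by gene name from the 58735 genes of a deposited count table. RNA-seq was run on 8 libraries of cells whose labels give them as A549, a widely used line from a human lung adenocarcinoma. The EV group (n = 4) carried an empty lentiviral vector and the KRT19 group (n = 4) a lentivirus for Flag-tagged KRT19, and in the study's methods all of these cells were selected with puromycin into stable lines. Keratin 19, the product of KRT19, belongs to the intermediate filaments of simple epithelia. Each group was 1 stably transduced population as far as the methods state, and nothing in the labels said that the 4 libraries of a group came from separate cultures. P-values therefore measured only the spread between these libraries, which may be technical. Library totals ranged from 14073065 to 17054364 counts, so that 3 counts corresponded to 0.176 to 0.213 CPM (counts scaled to a common library size after TMM normalization).

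Chemokines are small secreted proteins that guide leukocytes along gradients through G protein-coupled receptors, and those with a glu-leu-arg motif before the CXC cysteines (ELR+) attract neutrophils. Interleukins and colony-stimulating factors act through receptors that signal by JAK kinases and STAT factors, by the adaptor MYD88, or by receptor kinases. Many of these ligand genes are targets of NF-kB and belong to the senescence-associated secretory phenotype, the set of factors that senescent cells release.

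The labels were checked first. KRT19 had 1, 3, 2 and 5 counts in the EV libraries and 5147, 4353, 4923 and 4696 counts in the KRT19 libraries. The groups were far apart, as their labels state. The cell line label held less well. CDKN2A, CDKN2B and MTAP, neighbouring genes known to be deleted in A549, had at least 466 counts in each library, and CDKN2A had 1328 to 1824. Of 8 genes that A549 is known to express strongly, NQO1 was high, whereas AKR1C3 and ALDH1A1 did not exceed 3 counts. The epithelial markers EPCAM and CDH1 did not exceed 3 counts, while KRT8 and KRT18 were at 2988 counts or more, and the surfactant genes SFTPB and SFTPC were at 0. A protocol text of the labels speaks of retina, and of 8 retinal markers SAG and RCVRN were at 0 while OPN1SW had 22 to 30 counts and NRL 9 to 24. The cells are called by their label below, and the part of their identity in the values was not tested. The 8 retinal markers summed to 2.12 to 3.26 CPM (EV) and 2.28 to 2.84 CPM (KRT19). Leukocyte markers, which could bring chemokines of their own, summed to 0.865 to 1.99 CPM (EV) and 1.56 to 2.05 CPM (KRT19) over 10 genes, most of it from ITGAM, which had 11 to 24 counts in EV and 19 to 28 in KRT19 libraries (log2 fold change 0.59, edgeR unadjusted p 0.0485 and adjusted p 0.906). CD14 had up to 6 counts, PTPRC at most 1, and CD3D, CD3E and MS4A1 had 0. The 8 fibroblast markers summed to 2.86 to 3.56 and 2.18 to 3.98 CPM, most of it from COL1A1 with 21 to 54 counts, while COL1A2 did not exceed 1 count. The 6 endothelial markers summed to 3.01 to 3.65 CPM (EV) and 2.52 to 2.84 CPM (KRT19), and these ranges did not overlap. The part of these markers in the ligand values was not tested.

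Of the 44 ligands, 13 were above 3 counts in every library, 5 were above it in some libraries and 26 were at or below it in all 8. Those above it were CXCL1, CXCL2, CXCL16, CCL28, IL11, LIF, IL7, IL15, TSLP, IL12A, CSF1, KITLG and IL32. The 26 others included 11 genes with no count in any library, CXCL5, CXCL6, CXCL9, CXCL12, CXCL14, CX3CL1, CCL3, CCL7, IL6, IL24 and CSF3. A count of 0 allows a level of up to 0.176 to 0.213 CPM at these depths, which covers counting error only. For CCL3 the limit is less certain, because 74.6% of its exon bases lie on the opposite-strand gene AC243829.4, also at 0, and 62.6% of its 75-base words occur in another gene. Fewer expressing cells and less RNA per cell cannot be told apart in bulk samples. All 3 genes of the IL-7 and IL-15 type were above the floor of 3 counts in every library, against none of the 4 IL-1 family genes (IL1B and IL18 were above it in some), none of the 3 CXCR3 chemokines and neither TNF superfamily gene.

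**Figure D1:**
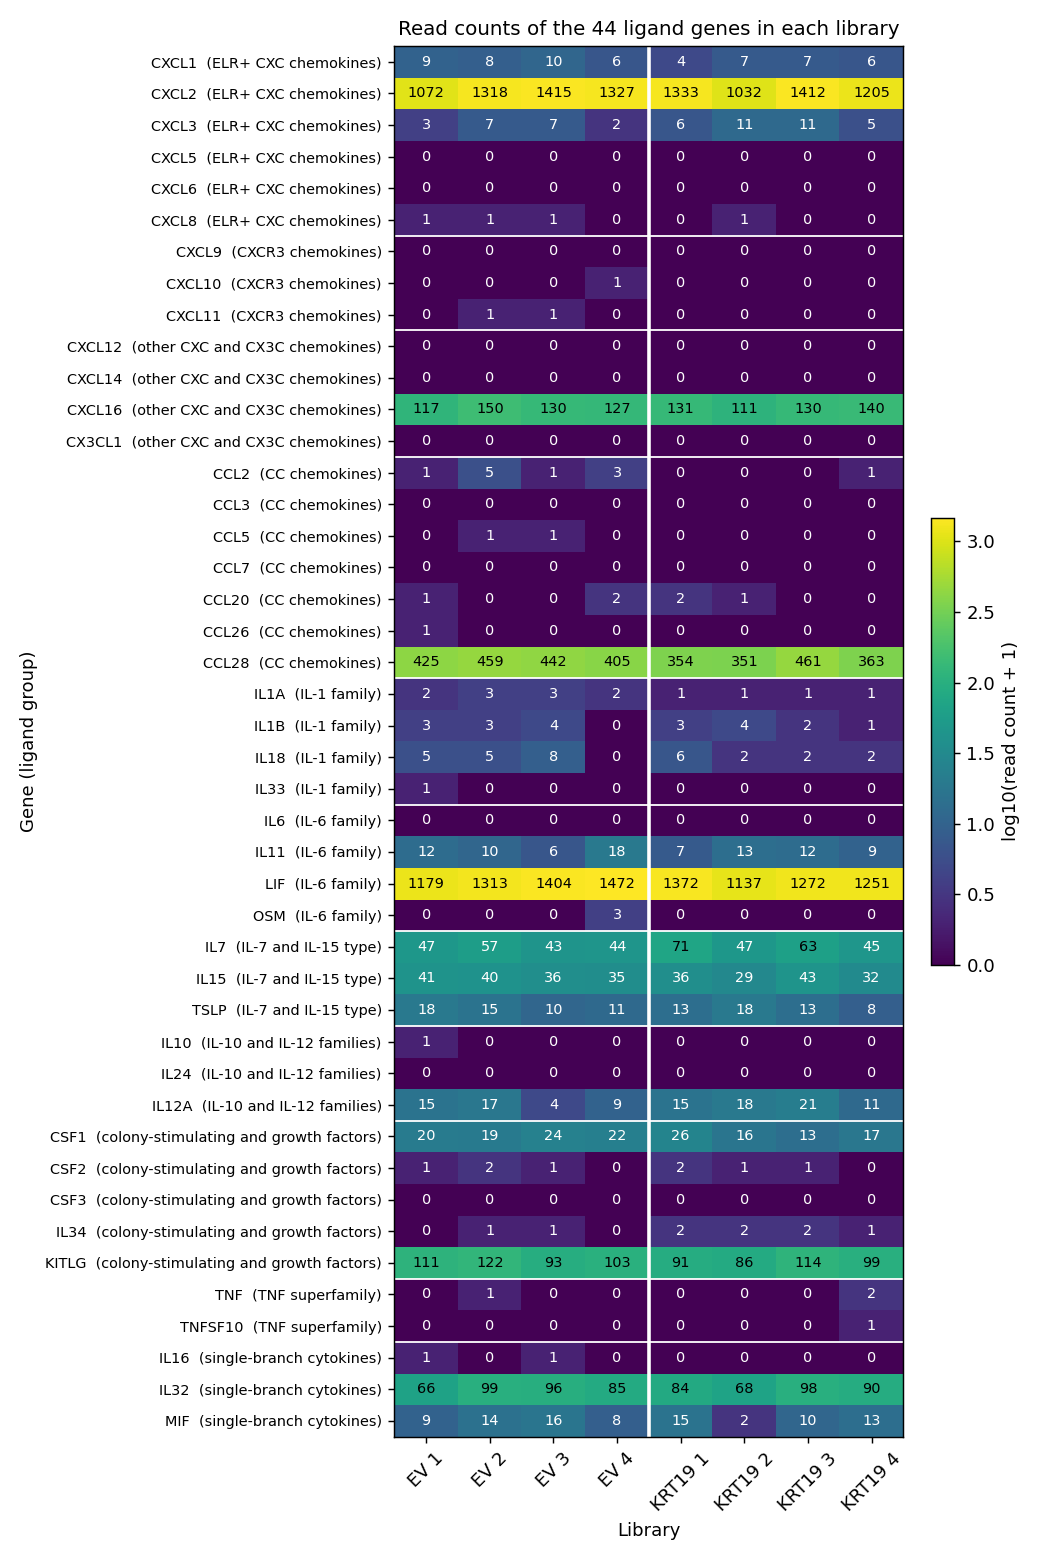
Read counts of the 44 ligand genes (vertical axis, grouped by ligand type) in the 4 EV and 4 KRT19 libraries (horizontal axis). Colour gives log10(count + 1) and the numbers give the counts. Bright rows are CXCL2 and LIF, each at 1032 counts or more in all 8 libraries, and 11 rows hold 0 throughout.

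The ELR+ CXC chemokines are close relatives that differed widely in level. Their 6 genes lie on chromosome 4, with their lower coordinates within 357 kb. CXCL2 (ENSG00000081041, GRCh38 chr4:74097035-74099293, minus strand) had 1072, 1318, 1415 and 1327 counts in the EV libraries and 1333, 1032, 1412 and 1205 in the KRT19 libraries. CXCL1 had 9, 8, 10 and 6 counts in EV and 4, 7, 7 and 6 in KRT19 libraries. CXCL3 had 3, 7, 7 and 2 counts in EV and 6, 11, 11 and 5 in KRT19 libraries. The values of CXCL1 and CXCL3 overlapped between the groups, as did those of CXCL2. CXCL8, which encodes interleukin-8, had 1 count in 4 libraries and 0 in the others, and CXCL5 and CXCL6 were at 0. Per kb of annotated exon length, CXCL2 stood 103 to 288 times above CXCL1 and 139 to 982 times above CXCL3 across the 8 libraries. CXCL2 and CXCL3 are close copies, and of the 75-base words in their transcripts 7.1% of those of CXCL2 and 4.6% of those of CXCL3 also occur in another gene.

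**Figure D2:**
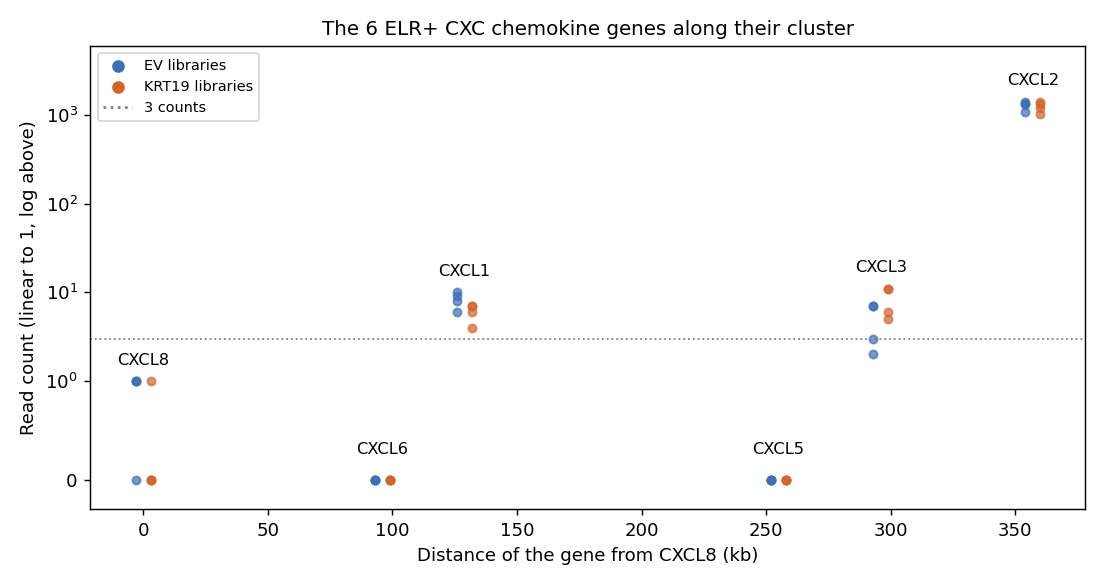
Read counts (vertical axis, linear to 1 and logarithmic above) of the 6 ELR+ CXC chemokine genes against their distance from CXCL8 in kb, with 1 point per library and the 3-count floor dotted. CXCL2, at 357 kb, lies at 1032 to 1415 counts while none of the other 5 genes exceeds 11 counts.

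The promoter sequences of these 6 genes are shown because the genes share a stretch of letters and yet were counted at such different levels. They were taken from RefSeq (GRCh38.p14), and 32 of the 44 ligands matched that table. The letters GGAATTTCC, 1 form of the NF-kB motif, were searched on both strands in windows from 250 bases before to 50 bases after each gene start. They occurred in 162 of 35116 promoters (0.461%) and in 9 of the 43 promoters listed for ligands (20.9%), which belong to 9 of the 32 ligand genes, among them all 6 ELR+ genes. The following windows of 41 bases are written 5′ to 3′ on the strand of the gene, with those letters in capitals.
CXCL1: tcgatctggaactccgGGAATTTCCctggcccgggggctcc
CXCL2: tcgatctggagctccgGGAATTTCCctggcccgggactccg
CXCL3: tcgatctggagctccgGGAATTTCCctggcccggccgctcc
CXCL5: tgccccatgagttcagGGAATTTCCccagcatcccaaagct
CXCL6: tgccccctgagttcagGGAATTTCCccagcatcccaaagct
CXCL8: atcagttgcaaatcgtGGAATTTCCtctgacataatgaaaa
They lie at chr4:73869299-73869339 for CXCL1, chr4:74099248-74099288 for CXCL2 and chr4:74038743-74038783 for CXCL3. Those of CXCL5, CXCL6 and CXCL8 lie at chr4:73998743-73998783, chr4:73836573-73836613 and chr4:73740462-73740502. Distances are counted from the RefSeq start of each gene, which need not be the gene bound of the deposited table. Against the bounds of that table, the windows of CXCL2, CXCL3 and CXCL6 lie inside the gene, that of CXCL5 lies partly inside, and those of CXCL1 and CXCL8 lie before it. The capitals began 77 bases before the RefSeq start in CXCL2, 78 in CXCL1 and CXCL3, 89 in CXCL6, 90 in CXCL5 and 91 in CXCL8. Over the whole 300-base promoter, identity with CXCL2 was 73.7% in CXCL3, 69.8% in CXCL1, 51.0% in CXCL6, 50.1% in CXCL5 and 43.8% in CXCL8. CXCL1 and CXCL3, the nearest to CXCL2 in their letters, stood far below it, at 4 to 10 and 2 to 11 counts. Whether likeness of the promoters goes with level was not tested. The whole promoters of CXCL2 (chr4:74099146-74099445, minus strand), of CXCL3 (chr4:74038640-74038939, minus strand) and of CXCL8 (chr4:73740319-73740618, plus strand) show the highest gene beside its closest relative and its most distant one.
CXCL2: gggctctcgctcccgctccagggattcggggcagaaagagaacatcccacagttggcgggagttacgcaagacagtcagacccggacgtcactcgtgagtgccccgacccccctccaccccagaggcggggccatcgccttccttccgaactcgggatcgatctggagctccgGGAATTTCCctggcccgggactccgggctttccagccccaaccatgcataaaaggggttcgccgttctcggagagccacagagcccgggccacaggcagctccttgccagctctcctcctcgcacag
CXCL3: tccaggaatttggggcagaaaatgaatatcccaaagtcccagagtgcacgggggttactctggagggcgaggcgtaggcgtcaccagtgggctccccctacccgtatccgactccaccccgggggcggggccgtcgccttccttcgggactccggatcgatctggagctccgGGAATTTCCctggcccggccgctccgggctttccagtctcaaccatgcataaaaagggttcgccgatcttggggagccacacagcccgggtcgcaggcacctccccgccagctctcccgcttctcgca
CXCL8: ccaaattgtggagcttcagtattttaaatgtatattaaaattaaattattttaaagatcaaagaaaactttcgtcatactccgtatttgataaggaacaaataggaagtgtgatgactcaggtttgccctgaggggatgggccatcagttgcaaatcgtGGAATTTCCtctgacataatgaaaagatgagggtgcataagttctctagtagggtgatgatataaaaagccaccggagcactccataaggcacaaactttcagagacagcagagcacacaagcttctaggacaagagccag
A match of these letters is a description of the sequence and no measure of binding.

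Among the other chemokines, CXCL16 and CCL28 were well above the floor, and the interferon-induced and monocyte-attracting ones were at or near it. CXCL16, a membrane-anchored chemokine that ADAM10 sheds, had 117, 150, 130 and 127 counts in EV and 131, 111, 130 and 140 counts in KRT19 libraries. CCL28 (ENSG00000151882, chr5:43376645-43412391), a mucosal chemokine that attracts antibody-secreting cells, had 425, 459, 442 and 405 counts in EV and 354, 351, 461 and 363 in KRT19 libraries. Scaled for depth, the EV libraries had 28.3, 27.7, 26.9 and 23.8 CPM and the KRT19 libraries 21.4, 25, 27 and 24 CPM, so that 1 KRT19 library lay below all EV libraries and the other KRT19 values were within their range. The CXCR3 ligands CXCL9, CXCL10 and CXCL11, which interferon-gamma induces, had at most 1 count. CCL2, the main attractant of monocytes, had 1, 5, 1 and 3 counts in EV libraries and 0, 0, 0 and 1 in KRT19 libraries. The summed counts of CCL2 were 10 and 1, a ratio of 0.104 for KRT19 over EV with an exact 95% counting interval of 0.00239 to 0.728. That interval does not include the spread between libraries, and CCL2 was too low for the filter of the test. Under a looser filter edgeR gave it an unadjusted p of 0.0244 and an adjusted p of 0.761, where 5.15% of 30250 genes had an unadjusted p under 0.05. CCL3, CCL5, CCL7, CCL20 and CCL26 did not exceed 2 counts.

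In the IL-6 family the levels ran from the highest mean CPM of the 44 ligands to no count at all. LIF (ENSG00000128342, chr22:30240447-30246851), leukemia inhibitory factor, had 1179, 1313, 1404 and 1472 counts in EV and 1372, 1137, 1272 and 1251 counts in KRT19 libraries. The mean level of LIF was 82.4 ± 4.20 CPM for EV against 80.2 ± 3.94 CPM for KRT19 (± SD of 4 libraries, as below), with overlapping ranges. CXCL2 stood beside it at 78.7 ± 6.04 and 79.1 ± 3.99 CPM. LIF and CXCL2 together made up 73.5% ± 2.38 (EV) and 74.0% ± 1.28 (KRT19) of the CPM summed over the 44 ligands. IL11, a cytokine of fibrosis and platelet formation, was low at 6 to 18 counts in EV and 7 to 13 counts in KRT19 libraries. Oncostatin M (OSM) had 3 counts in 1 EV library and 0 elsewhere. IL6 was at 0 in all 8 libraries.

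IL6, CXCL8 and IL1B are the ligands of this list for which the study designed RT-PCR primers. Their counts are given here for libraries labelled only EV or KRT19, and no RT-PCR value was compared with them. IL1B, a pyrogenic cytokine of the IL-1 family, had 3, 3, 4 and 0 counts in EV and 3, 4, 2 and 1 in KRT19 libraries. IL1A had 2, 3, 3 and 2 counts in EV and 1 in each KRT19 library. Its groups did not overlap, but every value was at or below the floor, as were those of IL34, the other ligand at the floor whose CPM ranges did not overlap. The counts of IL34, 0 to 1 in EV and 1 to 2 in KRT19 libraries, met at 1. How often genes at this level have groups that do not overlap was not determined. IL18, which inflammasomes activate, had 5, 5, 8 and 0 counts in EV and 6, 2, 2 and 2 in KRT19 libraries, and IL33 had 1 count in total. The primers of IL6 and CXCL8, from the study's supplement, are shown 5′ to 3′ because their targets mark which exons the assay covers.
IL6 forward primer: cctgaaccttccaaagatggc
IL6 reverse primer: ttcaccaggcaagtctcctca
CXCL8 forward primer: atgacttccaagctggccgtg
CXCL8 reverse primer: tgtgttggcgcagtgtggtc
On the GENCODE 29 transcripts the IL6 forward primer lay in exon 3 of a protein-coding transcript (chr7:22728749-22728769), and the reverse primer matched the junction of exons 3 and 4 (chr7:22728803-22729530, intron included). The CXCL8 primers lay in the coding parts of exon 1 (chr4:73740659-73740679) and exon 2 (chr4:73741650-73741669). With no count for IL6 and 4 counts in all for CXCL8, a difference between the groups was not detectable at this depth for either gene. Of the exon bases of IL6, 20.7% lie on the opposite-strand gene AC073072.1, which was itself at 0, and 2.2% on STEAP1B, also opposite, which had 246 to 300 counts.

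The cytokines of lymphocyte growth were low but present throughout. IL7, which sustains lymphocytes and their precursors, had 47, 57, 43 and 44 counts in EV and 71, 47, 63 and 45 counts in KRT19 libraries. The first and the third of the KRT19 libraries were above all EV libraries and the remaining 2 were within their range. IL15, which sustains natural killer and memory T cells, had 35 to 41 counts in EV and 29 to 43 in KRT19 libraries. TSLP, the epithelial alarmin that acts on dendritic cells, had 10 to 18 and 8 to 18 counts. IL12A, the p35 chain shared by interleukin-12 and interleukin-35, had 15, 17, 4 and 9 counts in EV and 15, 18, 21 and 11 in KRT19 libraries. The third EV library was the lowest for IL12A and the groups overlapped. IL10 and IL24 did not exceed 1 count. Of the exon bases of IL7, 16.3% lie on genes of the opposite strand, chiefly ZC2HC1A with 164 to 263 counts, and the library kit named in the labels does not mark strand, so that reads from the shared stretch cannot be told apart.

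Among the colony-stimulating and growth factors, KITLG and CSF1 were above the floor. KITLG, the ligand of the receptor kinase KIT, had 93 to 122 counts in EV and 86 to 114 in KRT19 libraries. CSF1, the macrophage growth factor, had 20, 19, 24 and 22 counts in EV and 26, 16, 13 and 17 in KRT19 libraries, and the KRT19 values reached both above and below those of EV. CSF2 and IL34 did not exceed 2 counts and CSF3 was at 0. TNF and TNFSF10, which encodes the death ligand TRAIL, did not exceed 2 counts. IL16, an attractant of CD4+ cells, had 1 count in 2 EV libraries and 0 elsewhere, and 36.0% of its exon bases lie on the opposite-strand gene STARD5 (29 to 53 counts). IL32, an intracellular and secreted inducer of other cytokines, had 66 to 99 counts in EV and 68 to 98 in KRT19 libraries.

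MIF, macrophage migration inhibitory factor, was low for a gene that most cells express strongly. It had 9, 14, 16 and 8 counts in EV and 15, 2, 10 and 13 counts in KRT19 libraries. Of its exon bases, 61.9% lie on MIF-AS1 on the opposite strand (0 to 2 counts) and 32.2% on AP000350.4 on the same strand (0 counts). Of its 75-base words, 55.3% also occur in another gene. How the counting program treated reads that fall on several genes is not given in the sources used here, and the part of this overlap in the low counts was not tested.

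Per kb of exon length the 13 ligands above the floor formed an order from CXCL2 (mean 52.6 CPM per kb over the 8 libraries) through LIF (20.5), CCL28 (5.64), CXCL16 (2.90) and IL32 (1.67) to KITLG (1.03) and IL7 (0.960). Each of the first 5 had a range over the libraries that did not overlap that of the next. KITLG and IL7 overlapped, with KITLG higher in 6 of 8 libraries. IL12A (0.425), CXCL1 (0.346), IL15 (0.290), IL11 (0.256), CSF1 (0.227) and TSLP (0.196) followed below all IL7 values, and none of these neighbours was separated by its range.

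**Figure D3:**
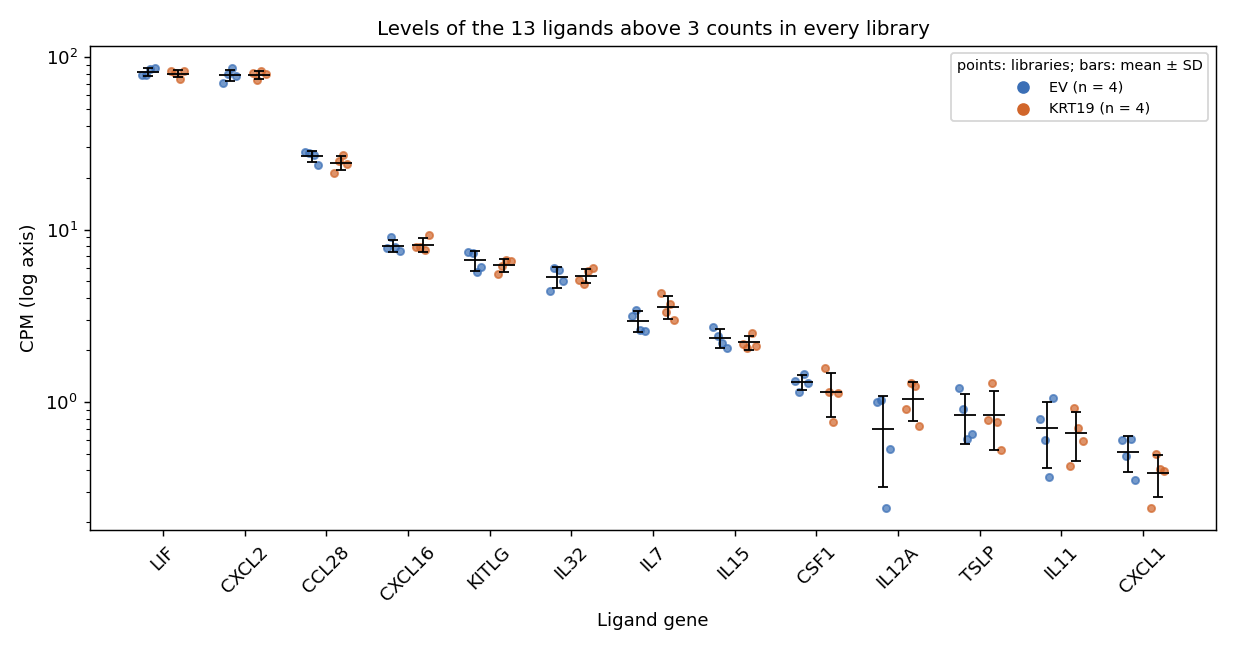
CPM (vertical axis, logarithmic) of the 13 ligands above 3 counts in every library, with 1 point per library and the mean ± SD of each group (n = 4). The points of the EV and KRT19 groups overlap for all 13 ligands.

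The comparison of KRT19 with EV asked whether overexpressed KRT19 moved these ligands. Over all genes, edgeR's quasi-likelihood test with Benjamini-Hochberg adjustment called 1 of 14621 tested genes (0.00684%) at an adjusted p under 0.05, KRT19 itself, and 791 (5.41%) had an unadjusted p under 0.05. Of the 44 ligands 13 had enough counts to be tested, the 12 most abundant of those above the floor and MIF, and 0 of these 13 were called. None had an unadjusted p under 0.05 either, and DESeq2's Wald test and limma-voom gave 0 ligands on both counts. Their median log2 fold change was -0.04, beside 0.01 over all tested genes, with 5 ligands above 0 and 8 below. None of the 13 tested ligands had groups that did not overlap in CPM, which 3.44% of all tested genes had. Summed over the 44 ligands, the level was 219 ± 7.65 CPM for EV against 215 ± 3.45 CPM for KRT19.

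The lowest p-values belonged to IL7, CCL28 and IL12A. IL7 was at 2.94 ± 0.412 CPM for EV against 3.57 ± 0.557 CPM for KRT19, a log2 fold change of 0.29 ± 0.17 (SE) with an edgeR adjusted p of 0.906. CCL28 was at 26.7 ± 1.98 against 24.3 ± 2.33 CPM, a log2 fold change of -0.13 ± 0.080 with an edgeR adjusted p of 0.906. IL12A was at 0.699 ± 0.379 against 1.04 ± 0.264 CPM, a log2 fold change of 0.57 ± 0.36 with an edgeR adjusted p of 0.906. In the exact permutation test of CPM (two-sided, smallest possible p 0.0286), the p was 0.143 for IL7, 0.229 for CCL28 and 0.229 for IL12A. The mean differences of IL7 and CCL28 were larger than the SD of either group and that of IL12A was not, and the ranges of the groups overlapped for all 3. With 1 library left out, the log2 fold change ran from 0.19 (without the first KRT19 library) to 0.37 for IL7, from -0.19 to -0.07 (without the first KRT19 library) for CCL28, and from 0.29 (without the third EV library) to 0.82 for IL12A. Without the fourth EV library the unadjusted p of CCL28 from edgeR was 0.0468, and without the third KRT19 library it was 0.0257, with adjusted p-values of 0.994 and 0.912.

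Between these libraries the abundant ligands set narrow limits on a difference and the rare ones did not. The intervals hold only the spread between these libraries, which may be technical, and not that between separate transductions. As a percent change of KRT19 against EV, the 95% confidence interval ran from -8.35% to 10.1% for CXCL2 and from -10.5% to 5.83% for LIF. For CCL28 it ran from -18.8% to 2.74%, and for CXCL16 from -13.6% to 18.8%. The intervals of KITLG (-21.8% to 13%) and IL32 (-16.4% to 24%) were almost as short. At the other end the interval of IL12A reached from -12.8% to 154%, and that of MIF from -51.3% to 58.8%. CXCL1, above the floor but below the filter, was at 0.511 ± 0.12 against 0.387 ± 0.107 CPM, with an exact permutation p of 0.2 (two-sided).

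**Figure D4:**
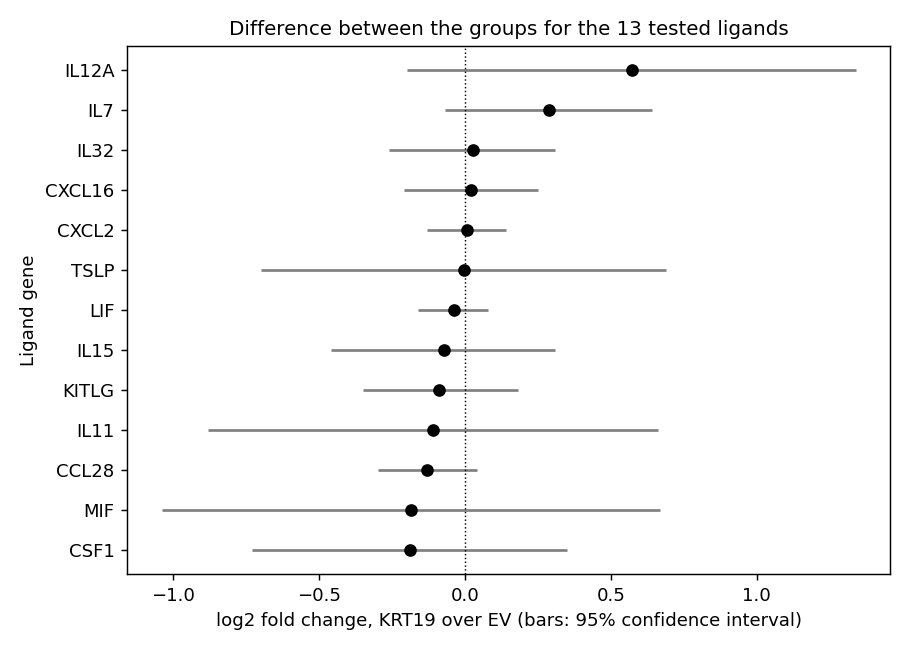
Log2 fold change of KRT19 over EV (horizontal axis) with its 95% confidence interval for the 13 tested ligands (vertical axis). All 13 intervals include 0. Those of CXCL2 (-0.13 to 0.14) and LIF (-0.16 to 0.08) are short and that of MIF (-1.04 to 0.67) is long.

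Receptors for the ligands above the floor ranged from well counted to not counted. Of the 13 ligands above the floor, 12 had receptors in a list of 42 ligands with their signalling chains, and for 2 of these 12, LIF and IL11, every listed chain was also above 3 counts in all libraries. The shared chain IL6ST (gp130) stood at 13.2 CPM per kb over the 8 libraries, LIFR at 2.65 and IL11RA at 1.00, against 20.5 for LIF and 0.256 for IL11. CXCL2 faced a receptor at 0, since CXCR2 had no count in any library and CXCR1 had at most 1. KIT, the receptor of KITLG, had at most 2 counts, CXCR6, that of CXCL16, 1 to 8, and CSF1R 3 to 11. CCL28 has alternative receptors, of which CCR3 was at 0 and CCR10 was above the floor in every library with 13 to 37 counts. IL7R was present at 43 to 67 counts, but IL2RG, the common gamma chain that receptors of IL-7 and IL-15 need, had at most 1. The reverse held for 6 ligands that were not above the floor in every library while all their listed chains were, OSM, IL6, IL1A, IL1B, TNFSF10 and MIF. TNF is not among them because TNFRSF1B, with 3 to 13 counts, was not above the floor in every library. Its alternative receptor TNFRSF1A was, with 5187 to 6583 counts. OSMR had 2333 to 2953 counts and the TRAIL receptors TNFRSF10A and TNFRSF10B 464 to 659 and 1290 to 1622. Of all 50 receptor genes listed, 17 were above 3 counts in every library and 11 were at 0 in all.

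**Figure D5:**
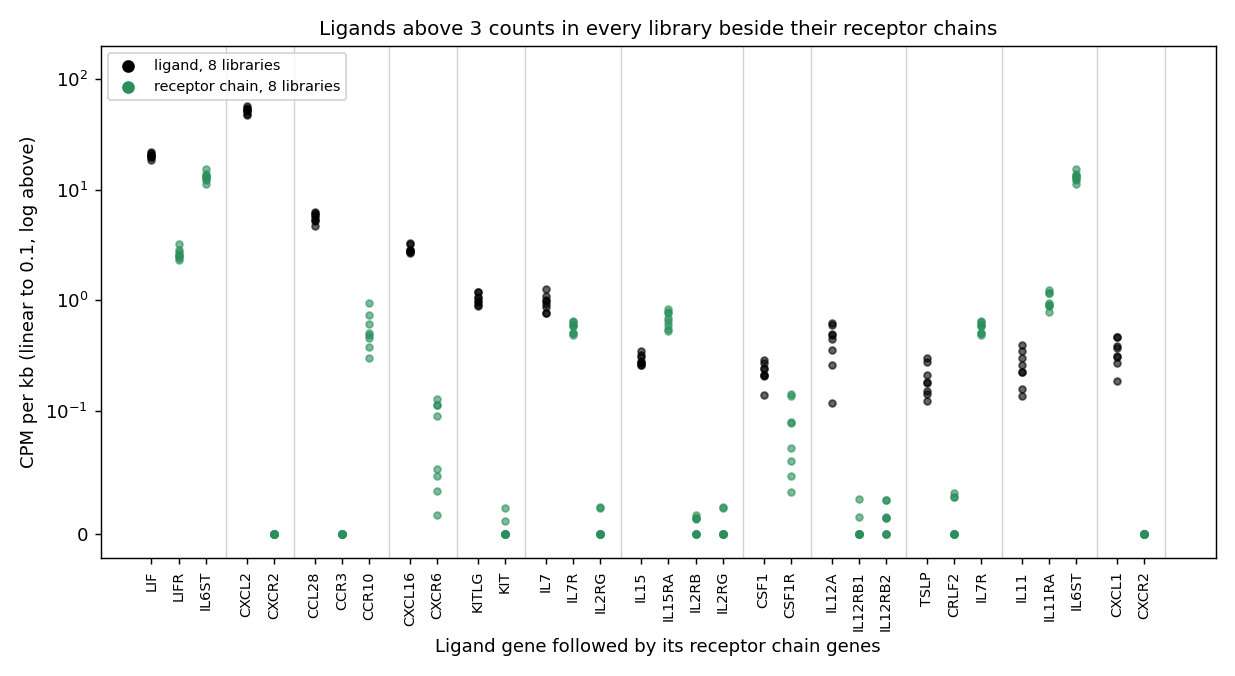
CPM per kb of exon length (vertical axis, linear to 0.1 and logarithmic above) in the 8 libraries for 12 ligands above the floor (black), each followed by its receptor chains (green). IL32 is not shown because it has no listed receptor. LIF stands beside LIFR and IL6ST well above 0, whereas CXCR2 and KIT lie at or near 0 beside CXCL2 and KITLG. Beside CCL28, CCR3 lies at 0 and CCR10 at 13 to 37 counts.

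The genes that carry or release these signals were expressed in part, and none passed the test. Of 98 genes in 4 lists 62 were above 3 counts in every library, 25 were at or below it in all and 12 of these were at 0 throughout. The test covered 62 genes, and edgeR called 0 of these at an adjusted p under 0.05, as did DESeq2 and limma-voom. By unadjusted p under 0.05 there were 2 higher and 3 lower genes, and in 4 of the 62 the groups did not overlap in CPM (CD44, CD74, TNIP1 and CISH). Both counts stand beside backgrounds of 5.41% and 3.44% of all tested genes. The median log2 fold change was -0.08 over 18 tested receptors, 0.01 over 24 NF-kB genes, -0.03 over 14 JAK-STAT genes and -0.05 over 6 genes of ligand release.

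In each list the genes with the lowest p-values showed small differences or were rare. Among receptors these were OSMR (168 ± 5.64 CPM for EV, 152 ± 11.2 CPM for KRT19), IL1RAP (28.1 ± 2.49 and 31.5 ± 2.22) and CD44, a coreceptor of MIF (570 ± 9.96 and 537 ± 20.1). In the NF-kB list they were TNIP1, an inhibitor of the pathway (167 ± 2.04 and 152 ± 10.7 CPM), the adaptor TRAF1 (22.9 ± 3.59 and 19.6 ± 2.19) and the inhibitor NFKBIB (72.9 ± 5.83 and 80.2 ± 5.91). Each of these 6 had an edgeR adjusted p of 0.906. In the JAK-STAT list CISH, a feedback inhibitor that cytokines induce, had 11, 7, 11 and 13 counts in EV and 19, 16, 21 and 14 in KRT19 libraries. All 4 KRT19 values of CISH were above the EV values, with a log2 fold change of 0.78 ± 0.28 and an edgeR adjusted p of 0.906. PIAS1 (35.4 ± 2.37 and 38.4 ± 1.19 CPM) and STAT6 (1.42 ± 0.340 and 1.01 ± 0.369 CPM) followed, with the same adjusted p from edgeR. The receptor adaptor MYD88 was low, at 4 to 16 counts. In the release list NLRP3 was at 1.03 ± 0.1 and 0.867 ± 0.325 CPM, the sheddase ADAM17 at 58.1 ± 4.29 and 56.2 ± 1.20 CPM, and the pore-forming GSDMD at 17.7 ± 1.62 and 17 ± 2.41 CPM. CASP1, which cleaves the precursors of IL-1 beta and IL-18, had at most 1 count and its adaptor PYCARD had 0 in all 8 libraries.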

How the data were processed

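Cells labelled A549 were profiled by RNA-seq in 4 EV and 4 KRT19 libraries, grouped by their labels. The authors deposited raw read counts per gene on hg38 (GRCh38), without normalization. The submitters' processing notes name Bowtie 0.12.2, featureCounts 1.5.0-p3 and DESeq2. Read cleaning details, strand setting and multi-gene reads are not given in the sources used here. The 44 members, and the receptor, pathway and marker lists, were chosen with earlier results of these data known. Counts (R 4.3.3) were filtered by filterByExpr, leaving 14621 genes, scaled by TMM and compared with edgeR 4.0.16 (glmQLFit, glmQLFTest, 1 group term, two-sided), with Benjamini-Hochberg adjustment over all tested genes and a threshold of 0.05. Alternatives used DESeq2 1.42.0, limma-voom 3.58.1, other scalings and filters, a replicate block and each library left out. Scripts were tested on simulated data. For ligands above 3 counts in every library, CPM was compared in an exact permutation test over the 70 possible assignments. CPM per kb used the deposited gene lengths. Exon overlap and 75-base words came from GENCODE 29, in which all 44 ligands had the same name and coordinates. The text names all 44 ligands, KRT19, up to 3 tested genes of lowest p in each pathway list, and markers that bear on the label. Further receptor, MYD88, CASP1 and PYCARD counts were named after their values were seen. Pairs of replicate libraries differed by more than counting noise (chi-square per degree of freedom 2.82 to 13.8), so no pair was treated as copies of the same library, though their spread may still be technical. Counts range from 14073065 to 17054364 per library, and floors and counting intervals cover counting error only, because reads are not independent molecules.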

Additional observations from a re-analysis of the deposited data

Results flagged for a closer look

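A library standing apart from the other 3 of its group was looked for in 62 groups of 4, those of the ligands not at the floor, the named pathway genes and KRT19. The measure was the gap to the nearest library over the whole range of the group, set against Dixon's 95% value. For normally distributed values chance passes it in about 1 in 20 groups (3.1 of 62), and 5 groups passed. Low counts do not have that distribution, so the expected number is only a rough guide. CCL2 in the KRT19 group had 1 count in the fourth library and 0 in the others (gap over range 1). Any group with a count in only 1 library gives this value, so that pass carries no information. IL18 was at 0.362 CPM in the first KRT19 library and at 0.117 to 0.142 CPM in the others (0.898). NFKBIB was at 64.2 CPM in the first EV library and at 75.6 to 76.2 CPM in the others (0.953). NLRP3 was at 1.18 CPM in the fourth EV library and at 0.964 to 0.998 CPM in the others (0.839). KRT19 itself was at 288 CPM in the third KRT19 library and at 310 to 311 CPM in the others (0.948).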

How the results depend on the processing

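No ligand and no gene of the 4 pathway lists passed the adjusted threshold in any of the 15 alternative fits, and the lowest adjusted p of a ligand was 0.65. Over all genes the count past that threshold was 1 as reported, 5 with DESeq2's Wald test, 8 with limma-voom, 71 when every gene with a count was tested (looser filter) and 1 to 5 with 1 library left out, 3 without EV replicate 1 and 5 without KRT19 replicate 3. The cause was not tested. Ligands at an unadjusted p under 0.05 numbered 0 as reported, 1 with the looser filter (CCL2, edgeR p 0.0244, adjusted 0.761, beside 5.15% of all genes) and 0 to 1 with 1 library left out (CCL28 without EV replicate 4 or KRT19 replicate 3). The stricter filter (5 CPM or more in 4 or more libraries) left 6 ligands to test, and the block on the replicate number called 1 gene, 0 ligands and 0 pathway genes.

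Same-numbered libraries showed no strong shared deviation (residual correlations -0.111, -0.0239, -0.159 and 0.0567). The values therefore gave no sign that the numbers pair the libraries, but they cannot show whether same-numbered libraries were prepared together. The number of ligands above 3 counts in every library was 13, with 9 above 10 counts, 16 above 0 counts and 13 to 14 with 1 library left out.

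Fold changes near 0 changed sign. That of CXCL2 was -0.0056 with upper-quartile scaling. With 1 library left out the log2 fold changes ran from -0.0375 to 0.0521 for CXCL2, -0.0457 to 0.0787 for CXCL16, -0.32 to 0.16 for IL11, -0.14 to 0.0032 for IL15, -0.26 to 0.20 for TSLP, -0.0505 to 0.0861 for IL32, -0.42 to 0.11 for MIF, -0.0797 to 0.0018 for ADAM17 and -0.12 to 0.0261 for GSDMD. The directions of CCL28, LIF, IL7, IL12A, CSF1 and KITLG held in all their alternatives, but not their sizes. With 1 library left out that of CSF1 ran from -0.39 (without KRT19 replicate 1) to -0.02 (without KRT19 replicate 3), of LIF from -0.06 to -0.0045, of KITLG from -0.16 to -0.03, of CCL28 from -0.19 to -0.07, of IL7 from 0.19 to 0.37 and of IL12A from 0.29 to 0.82. Of the named pathway genes that kept their sign, NLRP3 ran from -0.44 to -0.06, STAT6 from -0.71 to -0.31, TRAF1 from -0.30 to -0.13, TNIP1 from -0.17 to -0.09 and NFKBIB from 0.08 to 0.17. Depth limits the 26 ligands at the floor, none of which had enough counts for the main test. Among them the CPM ranges of IL1A and IL34 did not overlap, at 3 counts or fewer in every library.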

Other observations

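The motif letters were found in ligands above and at the floor. Of the 9 ligand genes whose promoter held GGAATTTCC, CXCL2, CXCL1 and TSLP were above 3 counts in every library, CXCL3 in some, and CXCL5, CXCL6, CXCL8, CXCL10 and CXCL11 in none. The TATA letters TATAAA, searched on the gene's strand in the same windows, occurred in 12 of the 43 ligand promoters (27.9%), from 12 of 32 genes, and in 2574 of 35116 promoters (7.33%). Of those 12 only KITLG and TSLP were above 3 counts in every library, and the others were CCL20, CCL3, CCL7, CXCL11, CXCL8, CXCL9, IL10, IL1A, TNF and TNFSF10, each at 3 counts or fewer in all 8. These are descriptions of the letters, with no test.

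The 26 ligands at the floor held 58 counts in all, 36 in the EV and 22 in the KRT19 libraries. These are raw sums, not scaled for depth, and their difference was not tested. IL1A held 10 and 4 of them, and IL34 went the other way with 2 and 7.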
